A study of Mus musculus with 24 samples.

Results

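Exc-Tafa1 and Exc-Abi3bp are 2 of the 6 excitatory neuron types among the 22 cell types that the authors named in single-nucleus data of the mouse amygdala. They were set against each other because, among the excitatory types, Exc-Tafa1 had the highest mean level of Slc17a7 and Exc-Abi3bp the highest mean level of Slc17a6. The pair was compared over the 17526 of 34039 genes, and over the 267733 of 271433 ATAC peaks, that had 10 or more counts in each strain across its 8 columns. Each column is the sum of the counts of 1 type in 1 library. Of the 24 samples of the series, 4 single-nucleus RNA and 4 single-nucleus ATAC libraries entered, and the methylation data, 16 samples of 8 strains, were not analysed here. All 8 libraries came from the amygdala of adult male mice aged 10 to 16 weeks, with tissue of about 2 animals pooled per library and 2 libraries per assay from each of the inbred strains named BL6 and DBA. Both types were taken from the same 4 libraries, so each library is 1 pair and the strain is the same on both sides of every difference. The RNA nuclei had been sorted by NeuN staining into a mix of 75% neuronal and 25% other nuclei, whereas the ATAC nuclei were sorted on a DNA dye without NeuN. Beyond the pooling, nothing says how separate the libraries of a strain are. The p-values therefore measure only how the difference within a library varies over these libraries.

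Excitatory neurons of the forebrain release glutamate, which vesicular transporters load into synaptic vesicles. Slc17a7 encodes VGLUT1, typical of neurons of cortical origin such as those of the basolateral amygdala and its neighbouring cortex, and Slc17a6 encodes VGLUT2, typical of thalamus, hypothalamus and brainstem and also found in parts of the medial and cortical amygdala. Neurons of cortical origin use the transcription factors Neurod2, Neurod6, Fezf2 and the NFI family, while Meis, Pbx and Ebf factors are known from ganglionic eminences, hypothalamus and other subcortical neurons. ATAC counts mark open chromatin, at gene starts and at distal regulatory regions.

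Exc-Tafa1 held 641, 416, 194 and 435 RNA nuclei and Exc-Abi3bp 544, 148, 134 and 553, in the order BL6 library 2, BL6 library 3, DBA library 2 and DBA library 3, which is kept throughout. The 8 RNA columns summed to 1862741 to 8678828 counts, and thinning them to equal depth is among the alternatives of the closing section. For ATAC, Exc-Tafa1 held 892 to 1773 nuclei and 19990901 to 24844867 counts per library. Exc-Abi3bp held 349 to 545 nuclei and 4773783 to 8291462 counts, so accessibility was measured more deeply in Exc-Tafa1. Exc-Tafa1 made up 6.77% to 9.40% of the RNA nuclei of a library and 24.1% to 25.8% of the ATAC nuclei. For Exc-Abi3bp these shares were 3.34% to 8.81% and 7.69% to 12.2%. Whether a type name covers the same kinds of nuclei in both assays was not tested. Levels are given as CPM, the counts of a gene or peak per 1000000 counts of its column, so a higher level per nucleus and a larger share of nuclei with the transcript cannot be told apart. Both types were checked against markers of other cells. Summed over 8 inhibitory neuron markers, Exc-Tafa1 stood at 13.7 to 28.8 CPM and Exc-Abi3bp at 73.4 to 99.6 CPM, against 630 to 717 CPM in the inhibitory types together. Gad1, Gad2 and Slc32a1, which define inhibitory neurons and whose values were seen before they were chosen, were at 1.15 to 12.5 CPM in both types and did not pass the test between them. Sums over astrocyte markers were 76.7 to 175 and 93.4 to 110 CPM, over oligodendrocyte markers 83.8 to 116 and 77.9 to 121 CPM, and over microglia markers 159 to 220 and 171 to 241 CPM, in Exc-Tafa1 and Exc-Abi3bp in turn, so the ranges of the pair overlapped for all 3 lists. They also overlapped for markers of oligodendrocyte precursors (3.92 to 7.72 and 2.49 to 8.05 CPM) and of endothelial and mural cells (6.64 to 65.0 and 8.77 to 52.0 CPM). All markers of these lists were counted in at least 1 column of each type, so none was at 0 throughout.

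Slc17a7 stood at 261, 314, 332 and 361 CPM in Exc-Tafa1 and at 24.1, 19.9, 8.70 and 27.3 CPM in Exc-Abi3bp. Slc17a6 had the opposite pattern, with 13.3, 11.7, 10.5 and 11.7 CPM in Exc-Tafa1 and 133, 122, 136 and 142 CPM in Exc-Abi3bp. No library of one type reached the other for either transporter. Tafa1, which encodes a small secreted protein of the nervous system, was at 2477, 2126, 2291 and 1703 CPM in Exc-Tafa1 and still at 475, 522, 529.7 and 476 CPM in Exc-Abi3bp. Abi3bp, which encodes an extracellular matrix protein, was at 24.1, 16.2, 34.6 and 33.2 CPM in Exc-Tafa1 and 162, 115, 257 and 234 CPM in Exc-Abi3bp. These 4 genes chose or named the pair, so their differences are given as a description without a test. Among the excitatory types, the mean of 317 CPM for Slc17a7 in Exc-Tafa1 was followed by 289 CPM in Exc-Strip2, whose libraries ranged from 215 to 366 CPM and so overlapped. For Slc17a6 the mean of 133.1 CPM in Exc-Abi3bp was followed by 132.7 CPM in Exc-Tfap2c, a difference well inside the spread of libraries. The lower transporter of each type was near its level in non-neuronal types: Slc17a7 averaged 20.0 CPM in Exc-Abi3bp, 20.5 in the non-neuronal type NN-MGC and 16.0 in NN-Astro, and Slc17a6 averaged 11.8 CPM in Exc-Tafa1 and 11.8 in NN-MGC. Such a level is not read as expression. The part of free RNA in droplets in it was not tested.

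**Figure D1:**
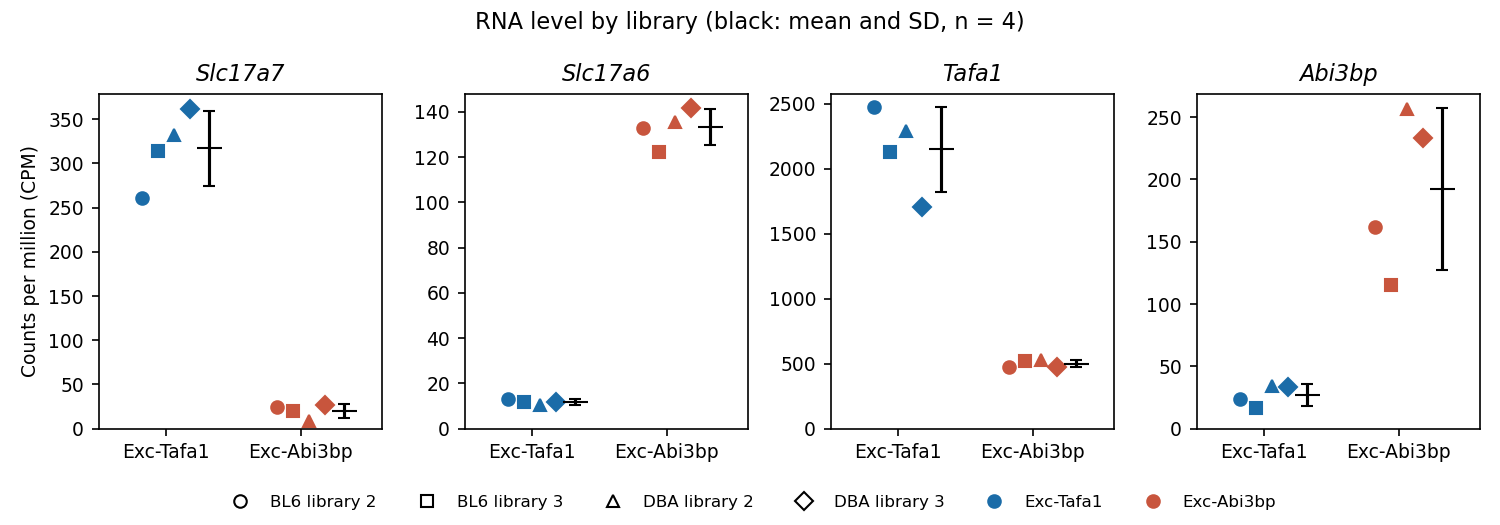
RNA level in CPM of Slc17a7, Slc17a6, Tafa1 and Abi3bp in each of the 4 libraries of Exc-Tafa1 (blue) and Exc-Abi3bp (red), with the mean and SD over n = 4 libraries in black. The types do not overlap in any panel, and Tafa1 is at 475 CPM or more in Exc-Abi3bp.

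The starts of the 2 transporter genes differed in accessibility in the direction of their RNA. The peak over the start of Slc17a7 (chr7:45163695-45164173 as listed, build mm10; gene chr7:45163921-45176139) was at 13.1, 13.04, 16.6 and 13.1 CPM in Exc-Tafa1 and 3.02, 4.87, 5.80 and 3.98 CPM in Exc-Abi3bp. The peak over the first start of Slc17a6 (chr7:51621349-51622592; gene chr7:51621830-51671126) was at 9.38, 9.82, 9.94 and 10.5 CPM in Exc-Tafa1 and 29.1, 23.5, 24.3 and 21.8 CPM in Exc-Abi3bp. All 4 libraries of one type stood above all 4 of the other at both starts, as they did at 106612 peaks (39.8% of those tested). All 6 tested peaks over the body of Slc17a7 were called higher in Exc-Tafa1, and 8 of 9 over Slc17a6 were called higher in Exc-Abi3bp. Over all peaks tested, these calls made up 25% and 22.3% in turn. The promoter windows of Slc17a7, Slc17a6 and 4 genes described further on are shown as examples. Their start peaks were called in the direction of their RNA. Some starts not shown, such as that of Barhl2 (log2 difference -3.12), differed more than that of Klhl1 (-1.07). The windows run from 250 bases before to 50 after the start, 5′ to 3′ on the strand of the gene. They are from RefSeq on GRCm38.p6, the reference that mm10 names. Capitals mark matches on either strand to CAGATG (an E-box known to be bound by NEUROD factors) or TGACAG (known to be bound by MEIS factors).
Slc17a7 (chr7:45163671-45163970, plus strand): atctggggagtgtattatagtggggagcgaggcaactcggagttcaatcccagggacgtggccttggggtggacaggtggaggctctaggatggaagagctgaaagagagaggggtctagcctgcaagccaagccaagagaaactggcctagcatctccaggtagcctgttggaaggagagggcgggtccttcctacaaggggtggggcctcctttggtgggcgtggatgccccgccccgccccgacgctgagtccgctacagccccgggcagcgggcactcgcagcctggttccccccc
Slc17a6 (chr7:51621580-51621879, plus strand): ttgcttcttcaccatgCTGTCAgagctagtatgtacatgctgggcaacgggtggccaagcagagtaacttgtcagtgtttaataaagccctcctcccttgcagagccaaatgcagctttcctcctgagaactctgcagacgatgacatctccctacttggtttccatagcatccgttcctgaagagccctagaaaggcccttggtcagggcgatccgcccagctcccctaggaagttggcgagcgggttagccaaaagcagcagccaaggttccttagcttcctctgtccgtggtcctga
Neurod2 (chr11:98329596-98329895, minus strand): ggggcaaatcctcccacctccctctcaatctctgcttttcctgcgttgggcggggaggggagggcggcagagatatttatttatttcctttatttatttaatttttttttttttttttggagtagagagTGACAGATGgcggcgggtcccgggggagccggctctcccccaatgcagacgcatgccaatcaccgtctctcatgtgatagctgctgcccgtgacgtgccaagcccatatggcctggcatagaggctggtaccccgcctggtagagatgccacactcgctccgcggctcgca
Neurod6 (chr6:55681214-55681513, minus strand): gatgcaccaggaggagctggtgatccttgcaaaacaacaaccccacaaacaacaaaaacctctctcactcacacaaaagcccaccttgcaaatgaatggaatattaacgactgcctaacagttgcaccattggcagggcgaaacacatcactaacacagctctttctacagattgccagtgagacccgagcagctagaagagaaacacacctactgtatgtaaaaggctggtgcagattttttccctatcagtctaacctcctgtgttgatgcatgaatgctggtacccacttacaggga
Meis1 (chr11:19018920-19019219, minus strand): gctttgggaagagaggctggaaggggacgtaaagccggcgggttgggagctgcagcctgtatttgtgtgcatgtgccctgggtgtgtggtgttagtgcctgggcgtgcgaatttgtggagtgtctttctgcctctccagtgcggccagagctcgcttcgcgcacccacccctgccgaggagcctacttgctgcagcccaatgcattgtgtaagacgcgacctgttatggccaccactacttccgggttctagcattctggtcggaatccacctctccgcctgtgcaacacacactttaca
Klhl1 (chr14:96518985-96519284, minus strand): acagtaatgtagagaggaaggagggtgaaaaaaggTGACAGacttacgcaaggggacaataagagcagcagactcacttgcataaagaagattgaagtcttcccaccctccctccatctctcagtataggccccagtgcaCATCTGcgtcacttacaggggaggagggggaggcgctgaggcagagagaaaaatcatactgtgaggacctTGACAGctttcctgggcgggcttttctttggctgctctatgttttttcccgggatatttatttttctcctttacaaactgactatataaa
The Slc17a7, Neurod6 and Meis1 windows held neither sequence. The Slc17a6 window held 1 TGACAG on the opposite strand. Neurod2 held TGACAG and CAGATG overlapping by 3 bases, and Klhl1 held 2 TGACAG and 1 CAGATG, read on the opposite strand. A match is a description of the letters and not a bound site.

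In RNA, 5268 genes were called between the types at an adjusted p under 0.05, which is 30.1% of all genes tested. Of these, 2765 (15.8% of genes tested) were higher in Exc-Tafa1 and 2503 (14.3%) higher in Exc-Abi3bp. A difference of 2-fold or more was called for 1991 genes (11.4%), 1076 (6.14%) higher in Exc-Tafa1 and 915 (5.22%) higher in Exc-Abi3bp. All 4 libraries of one type stood above all 4 of the other for 4375 genes, 25% of those tested. Exc-Tafa1 took 52.5% of the calls after TMM scaling and 41.7% with total counts alone, so which type has more calls depends on the scaling, while DESeq2 called 3498 genes and a fit without pairing by library called 1658 higher in Exc-Abi3bp. How the authors separated nuclei into types is not given in the sources used here. If RNA or accessibility was used, the features that separated the types differ by that choice, and the tests then say how evenly a difference repeats over the 4 libraries.

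The genes with the largest differences in favour of Exc-Tafa1, among genes whose mean log2 CPM reached 5, were Slc30a3, Nfib, Etv1, Hgf, Tanc1, Pdzrn3, Slc17a7, Ptprk, Itga8, Tcf4, Sox5 and Kitl. Slc17a7 is there by the choice of the pair and is not counted as a result. Slc30a3 encodes ZnT3, which loads zinc into the vesicles of glutamate neurons. It was at 105, 119.7, 107 and 124 CPM in Exc-Tafa1 and 3.03, 4.29, 0.83 and 2.02 CPM in Exc-Abi3bp, a log2 difference of 5.57 (SE 0.16, adjusted p 7.25e-12). Slc30a3 was therefore near the floor of the table in every Exc-Abi3bp library. Nfib, a transcription factor of the NFI family used in cortical development, stood at 384, 472, 365 and 264 CPM against 8.94, 15.0, 4.97 and 6.58 CPM (log2 difference 5.48, SE 0.12, adjusted p 1.44e-13). Etv1, an ETS factor that marks layer 5 neurons in cortex, stood at 138, 138, 169.9 and 169 CPM against 7.02, 3.76, 2.49 and 9.45 CPM (log2 difference 4.61, SE 0.20, adjusted p 3.43e-06). Both factors were high in each Exc-Tafa1 library and did not overlap.

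Hgf, the ligand of the MET receptor, was less even: 69.9, 36.9, 40.4 and 75.4 CPM in Exc-Tafa1 against 2.71, 10.2, 0.414 and 1.18 CPM. Its log2 difference of 4.56 (SE 0.66) was called at an adjusted p of 0.0165 but not without BL6 library 2 (adjusted p 0.128) or without DBA library 2 (adjusted p 0.0556). The BL6 library 3 column of Exc-Abi3bp was the highest of its type. Tanc1, a postsynaptic scaffold protein, had a log2 difference of 4.53, Pdzrn3, a ubiquitin ligase, 4.05, and the receptor phosphatase Ptprk 3.60. Tcf4, a bHLH partner of NEUROD factors, was the most abundant of the group, at 993, 811, 841 and 899 CPM against 111, 73.5, 82.9 and 100.4 CPM (log2 difference 3.34). Sox5, a factor of deep cortical layers, followed with 3.22, and Itga8, an integrin subunit, and Kitl, the ligand of KIT, with 3.51 and 3.06. None of the 11 genes other than Slc17a7 overlapped between the types. Their choice as the largest called differences favours this, and 25% of all genes tested did not overlap.

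In favour of Exc-Abi3bp, the largest differences were those of Meis1, Ebf1, Col11a1, Foxp2, Nxph1, Pbx3, Nhs, Baiap3, Pard3bos1, Sox6, Klhl1 and Slc17a6, the last again by the choice of the pair. Meis1, a homeodomain factor of the TALE class, was at 3.80, 1.15, 1.72 and 5.93 CPM in Exc-Tafa1 and 426, 422, 489.9 and 428 CPM in Exc-Abi3bp, a log2 difference of -6.97 (SE 0.33, adjusted p 0.00024). Ebf1, a helix-loop-helix factor, was at 2.996, 4.97, 7.35 and 2.87 CPM against 242, 383, 407 and 229 CPM (-6.09, SE 0.10, adjusted p 4.42e-16). Pbx3, the TALE partner of MEIS factors, reached 861, 784, 1006 and 944 CPM in Exc-Abi3bp and 30.0 to 48.5 CPM in Exc-Tafa1 (-4.51, SE 0.09). These 3 factors were at 48.5 CPM or less in every Exc-Tafa1 library and at 229 CPM or more in every Exc-Abi3bp library. Foxp2, a forkhead factor known from striatum, thalamus and intercalated amygdala neurons, was at 7.14, 6.31, 5.88 and 11.1 CPM against 256, 147, 141 and 206 CPM (-4.58, SE 0.14). Nxph1, a secreted ligand of neurexins, was at 15.9 to 45.6 CPM against 635 to 735 CPM (-4.56, SE 0.26). Col11a1, a fibrillar collagen, had a difference of -4.91, Nhs, a regulator of the actin cytoskeleton, -3.89, Baiap3, a protein of dense-core vesicle release, -3.69, and Klhl1, a neuronal actin-binding protein, -3.51.

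Sox6, a relative of Sox5, went the other way, at 7.49, 8.60, 8.09 and 10.95 CPM in Exc-Tafa1 and 145, 88.0, 87.9 and 116 CPM in Exc-Abi3bp (log2 difference -3.61, SE 0.15). The pair thus held these related factors in opposite order, each without overlap. Pard3bos1 (-3.62) is named as antisense to another gene, and since the use of strand in counting is not given in the sources used here, its reads and those of its partner may not be separable. None of the 11 genes other than Slc17a6 overlapped between the types, which their choice by size of difference again favours. Over all genes tested, 25% did not overlap.

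**Figure D2:**
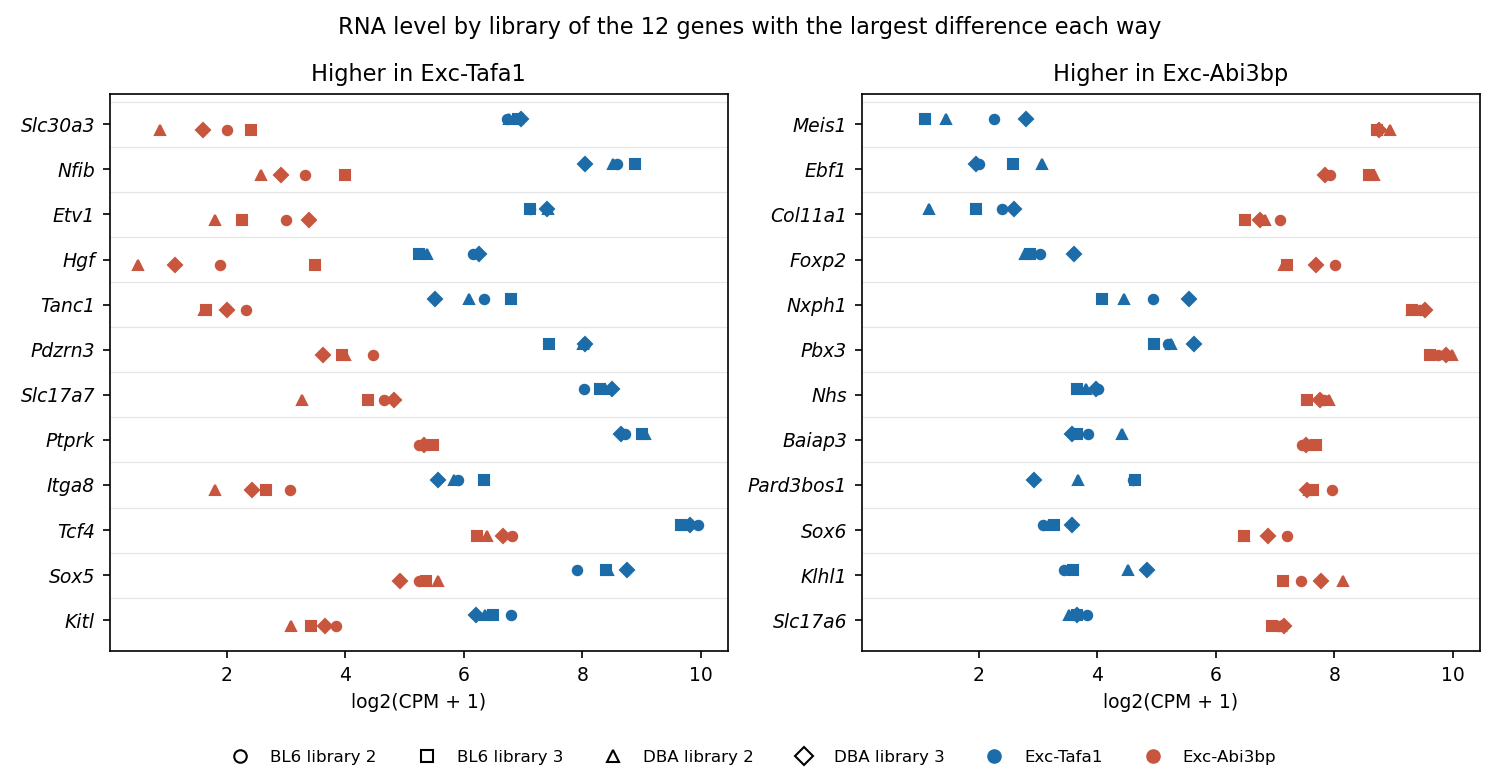
RNA level, as log2(CPM + 1), of the 12 genes with the largest difference in favour of each type, with 1 symbol per library and the types in blue (Exc-Tafa1) and red (Exc-Abi3bp). In both panels the 4 libraries of one type lie apart from the 4 of the other for every gene, Slc17a7 and Slc17a6 by the choice of the pair. The genes were picked for large called differences, which favours this, and 25% of all genes tested did not overlap.

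Transcription factors of cortical projection neurons leaned to Exc-Tafa1. Of 38 listed, 36 were tested, 17 were called higher in Exc-Tafa1, 7 higher in Exc-Abi3bp and 12 were not called. Their median log2 difference was 1.00, beside -0.01 over all genes tested. Neurod6 and Neurod2, bHLH factors of maturing cortical neurons, were at 14.1 to 35.6 and 21.2 to 32.4 CPM in Exc-Tafa1 and at most 1.07 and 1.44 CPM in Exc-Abi3bp, with log2 differences of 4.94 (SE 0.27) and 4.66 (SE 0.28). Both therefore stood close to 0 in Exc-Abi3bp. Chosen after their values were seen, Emx1 and Fezf2, which pattern and specify cortical neurons, were low but one-sided, at 6.88 to 7.72 and 6.91 to 12.7 CPM in Exc-Tafa1 against at most 1.01 and 0.169 CPM. Likewise, Nfia (2.30) and Nfix (4.07) differed in the direction of Nfib, and Mef2c (1.35) and Bcl11b (1.66), factors of excitatory and deep-layer neurons, were higher in Exc-Tafa1. The 3 NFI members listed thus all passed on one side. Of the 7 factors of the same list called higher in Exc-Abi3bp, 4 differed by 2-fold or more, beside 17 on the other side. Those named were Bcl11a, at 199.8 to 214 CPM against 30.6 to 55.3 CPM (-2.04), the upper-layer factor Cux1 (-1.71) and the LIM factor Lhx2 (-0.89). The most negative difference on the list, of a gene not named here, was -3.61. The members added after their values were seen were all higher in Exc-Tafa1.

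Factors of subpallial, hypothalamic and thalamic neurons leaned to Exc-Abi3bp. Of 58 listed in all, 29 were tested, 13 called higher in Exc-Abi3bp, 7 higher in Exc-Tafa1 and 9 not called, with a median of -0.76. Beside Meis1, Ebf1, Foxp2 and Pbx3, and again chosen after their values were seen, Meis2 was at 841 to 933 CPM against 68.6 to 110.1 CPM (-3.19), and Barhl2, a homeobox factor of diencephalon and spinal cord, at 13.6 to 18.6 CPM against at most 0.539 CPM (-5.36). Of the factors on the list that mark GABAergic neurons of the ganglionic eminences, Dlx1 was not called (log2 difference -0.61, adjusted p 0.575), and Dlx2, Dlx5, Lhx6 and Isl1 were under the count minimum, all at 1.44 CPM or less in every column of the pair. The list's members higher in Exc-Tafa1 included Tfap2d, an AP-2 factor, at 16.5, 18.4, 19.4 and 17.1 CPM against 0.958, 1.07, 0.83 and 0.843 CPM (4.29, SE 0.24). The orphan receptor Nr2f1 (0.89) was also higher there. The list is thus not one-sided.

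Among genes of glutamate and GABA synthesis and transport, 6 were higher in Exc-Tafa1, 6 higher in Exc-Abi3bp and 6 not called, of 18 tested, with a median of -0.18. These counts include Slc17a7 and Slc17a6, 1 on each side, which chose the pair and support nothing. The genes that make and load GABA were not called: Gad1 differed by -0.25 (adjusted p 0.687), Gad2 by -0.09 (adjusted p 0.820) and Slc32a1 by -0.66 (adjusted p 0.103), values chosen after they were seen. The sign for Gad1 and Gad2 turned under some alternatives, and Slc32a1 was called without DBA library 2 (adjusted p 0.0306). Slc38a1, which takes up glutamine, was also higher in Exc-Abi3bp (-0.95). Slc1a3, a glutamate transporter of astrocytes, was called higher in Exc-Tafa1 (1.41, adjusted p 0.0363). It stood at 12.4, 52.0, 18.4 and 9.16 CPM there and at 8.14, 8.05, 4.56 and 5.90 CPM in Exc-Abi3bp, and the sum of astrocyte markers was also more variable in Exc-Tafa1, at 76.7 to 175 CPM. The call was lost without DBA library 2 (adjusted p 0.106), and the part of astrocyte RNA in it was not tested.

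Ionotropic glutamate receptors split by subunit. Of 9 AMPA and kainate subunits, 5 were higher in Exc-Tafa1 and 2 higher in Exc-Abi3bp, with a median of 0.36. Grik3 was at 62.2, 82.8, 117 and 97.0 CPM in Exc-Tafa1 and 19.5, 26.3, 27.8 and 30.0 CPM in Exc-Abi3bp (log2 difference 1.84, SE 0.09). Grik4, a high-affinity kainate subunit, had the opposite order, at 17.97, 45.3, 21.3 and 22.3 CPM against 151, 169.6, 159 and 166 CPM (-2.61, SE 0.22). Kainate subunits thus differed in both directions, without overlap for either gene. Gria3 (0.73) and Gria1 (0.43) were modestly higher in Exc-Tafa1, and Gria2, the subunit that makes AMPA receptors impermeable to calcium, was not called (0.08, adjusted p 0.355), a value chosen after it was seen. Grik1 (-1.49, adjusted p 0.0358) lost its call without BL6 library 3 (adjusted p 0.0877) and without DBA library 2 (adjusted p 0.0932).

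Of 8 NMDA and delta subunits, 2 were higher in Exc-Tafa1 and 4 higher in Exc-Abi3bp, with a median of -0.19. Grin2a, the subunit that shortens NMDA currents in mature synapses, was at 1382, 1416, 1384 and 1322 CPM in Exc-Tafa1 and 574, 655, 555 and 592 CPM in Exc-Abi3bp (log2 difference 1.29, SE 0.06). Grin2b was higher in the same direction by 0.60. In the other direction, Grin3a was at 122, 120.4, 73.5 and 82.2 CPM against 241, 251, 293 and 225 CPM (-1.28, SE 0.18), and Grin2d differed by -0.75. Grin2a and Grin3a thus differed in opposite directions, each without overlap. Of 7 metabotropic glutamate receptors tested, 3 were higher in Exc-Tafa1 and none higher in Exc-Abi3bp, led by the presynaptic receptor Grm8, at 429 to 666 CPM against 180.0 to 242 CPM (1.51, SE 0.15), while Grm5 (0.30) was called with overlapping libraries.

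GABA and glycine receptors leaned to Exc-Abi3bp, with 9 of 19 higher there, 4 higher in Exc-Tafa1 and a median of -0.19. The 3 members named for the Exc-Abi3bp side were all glycine receptor alpha subunits: Glra1 at -2.59, Glra2 at -2.09 and Glra3 at -2.09 on the log2 scale. They were picked from the calls on that side, so their shared direction follows from the choice. Glra3 was the most abundant, at 169 to 238 CPM against 35.6 to 51.7 CPM. In the other direction, Gabrd, an extrasynaptic GABA-A subunit, differed by 1.48, the GABA-B subunit Gabbr2 by 1.20 and Gabra2 by 0.84. Gabbr2 was at 392, 402, 512 and 529 CPM in Exc-Tafa1 and 189, 225, 207 and 215 CPM in Exc-Abi3bp.

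Receptors of monoamines, acetylcholine, adenosine and cannabinoids also leaned to Exc-Abi3bp, with 14 of 31 higher there and 7 higher in Exc-Tafa1 (median -0.18). Drd3, a dopamine receptor, was at 15.5, 16.6, 17.4 and 22.4 CPM in Exc-Abi3bp and 0.115, 0.573, 0 and 0.539 CPM in Exc-Tafa1 (log2 difference -5.72, SE 0.33, adjusted p 1e-09). The serotonin receptors Htr2a, at 50.2 to 60.0 CPM against 5.88 to 15.4 CPM (-2.35), and Htr7, at 66.7 to 71.0 CPM against 14.2 to 18.6 CPM (4.01-fold), were on the same side. The inhibitory serotonin receptor Htr1f had the opposite order, at 267 to 431 CPM in Exc-Tafa1 against 135 to 164 CPM (1.16). Serotonin receptors were thus divided between the types. The cannabinoid receptor Cnr1 (1.76) and the histamine receptor Hrh3 (1.35), both presynaptic brakes on release, were higher in Exc-Tafa1.

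Of 23 neuropeptides and neurotrophins tested, 12 were higher in Exc-Abi3bp, 4 higher in Exc-Tafa1 and 7 not called, with a median of -0.79. Scg2, a granin of dense-core vesicles, was at 159, 162, 166 and 189.6 CPM in Exc-Abi3bp and 31.9, 25.6, 15.7 and 24.2 CPM in Exc-Tafa1 (log2 difference -2.70, SE 0.16). Cartpt and Adcyap1, which encode the peptides CART and PACAP, differed by -2.62 and -2.37 at no more than 24.2 CPM in any column. Chosen after their values were seen, Cck, at 119 to 156 CPM against 41.2 to 63.7 CPM (-1.40), and Tac1 (-2.22) and Crh (-3.62), at most 25.8 and 2.87 CPM, had the same direction. The neurotrophin genes Bdnf and Ntf3 had the opposite one: Bdnf was at 34.2, 42.1, 39.0 and 33.9 CPM in Exc-Tafa1 and 11.5, 11.8, 14.5 and 19.7 CPM in Exc-Abi3bp (1.39, SE 0.14), and Ntf3 differed by 1.27. Both neurotrophins were thus higher in Exc-Tafa1, without overlap.

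Peptide and steroid receptors had 14 of 40 members higher in Exc-Abi3bp and 8 higher in Exc-Tafa1 (median -0.33). Tacr1, the receptor of substance P, was at 93.2, 110.1, 158 and 123 CPM in Exc-Abi3bp and 16.0, 22.6, 11.8 and 6.11 CPM in Exc-Tafa1 (8.02-fold, adjusted p 0.0138), with a call that was lost without BL6 library 2 (adjusted p 0.0634). The relaxin receptor Rxfp1 (-2.41) and the prolactin receptor Prlr (-2.59) were also higher in Exc-Abi3bp. Vipr1, which binds VIP and PACAP, was at 29.6 to 42.2 CPM in Exc-Tafa1 against 4.56 to 8.26 CPM (2.36, SE 0.16). The mu opioid receptor Oprm1, at 223 to 256 CPM against 83.5 to 124 CPM, differed by 1.34, and the estrogen receptor Esr1 by 1.40 with overlapping libraries. Receptors of this list thus ran in both directions.

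Ion channels were close to even. Of 67 potassium channel subunits, 24 were higher in Exc-Tafa1 and 18 higher in Exc-Abi3bp (median 0.14), and of 43 sodium, calcium, HCN and TRPC subunits 10 were higher on each side (median -0.04). Kcnip1, a partner of Kv4 channels, was at 60.2, 69.8, 75.0 and 64.8 CPM in Exc-Abi3bp and 5.53, 5.54, 7.84 and 9.34 CPM in Exc-Tafa1 (-3.18, SE 0.13). Its paralog Kcnip3 was higher in Exc-Tafa1 (1.43), so the 2 paralogs differed in opposite directions. The silent subunit Kcng3 was also higher in Exc-Tafa1 (2.57), as was Kcnv1 (1.52). Among calcium channel subunits, Cacna2d2 was at 53.7 to 81.2 CPM in Exc-Abi3bp against 2.69 to 9.18 CPM (-3.26, SE 0.28), and its relative Cacna2d3 at 263 to 353 CPM in Exc-Tafa1 against 135 to 175 CPM (1.03, SE 0.06).

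Adhesion and guidance genes changed widely without a common direction. Of 65 synaptic adhesion genes, 16 were higher in Exc-Tafa1 and 17 higher in Exc-Abi3bp (median 0.09). Of 27 cadherins and protocadherins the counts were 6 and 8 (median -0.04), of 61 axon guidance genes 16 and 21 (median -0.03), and of 44 extracellular matrix genes 15 and 11 (median 0.13). Ntng2, a netrin-G adhesion protein, was at 31.2, 50.5, 51.0 and 56.6 CPM in Exc-Tafa1 and 2.23, 1.07, 2.49 and 4.05 CPM in Exc-Abi3bp (4.12, SE 0.17). Epha4, an ephrin receptor, was at 168, 143, 190.5 and 155 CPM against 23.1, 26.3, 20.3 and 18.6 CPM (2.99, SE 0.10). Both were without overlap. Cdh9 (2.01) was higher in Exc-Tafa1, while Cdh20 (-2.82) and Cdh6 (-2.50) were higher in Exc-Abi3bp, as were the teneurin Tenm3 (-1.85) and the semaphorin Sema5a (-2.01). Among collagens, Col24a1 (-3.54) and Col19a1 (-2.53) were higher in Exc-Abi3bp, and Col4a1 (1.61) in Exc-Tafa1.

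Genes of calcium and cyclic AMP signalling leaned to Exc-Tafa1, with 30 of 55 higher there, 9 higher in Exc-Abi3bp and a median of 0.26. Camk4, a calcium-dependent kinase of the nucleus, was at 361, 303, 333 and 306 CPM in Exc-Tafa1 and 115, 97.7, 85.0 and 113 CPM in Exc-Abi3bp (1.73, SE 0.08). Itpka (1.78) and the calcium-stimulated cyclase Adcy1 (1.69) had the same direction. Plcb4, a phospholipase downstream of metabotropic receptors, had the opposite one, at 95.6 to 125 CPM in Exc-Abi3bp against 8.22 to 19.0 CPM (-2.88, SE 0.11). Of 19 immediate early genes, whose RNA follows recent activity, 4 were higher in Exc-Tafa1, 3 higher in Exc-Abi3bp and 12 not called. Within that list Jun (0.94) and Egr1 (-0.90) had opposite directions. All lists are read beside the 30.1% of all genes that were called.

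**Figure D3:**
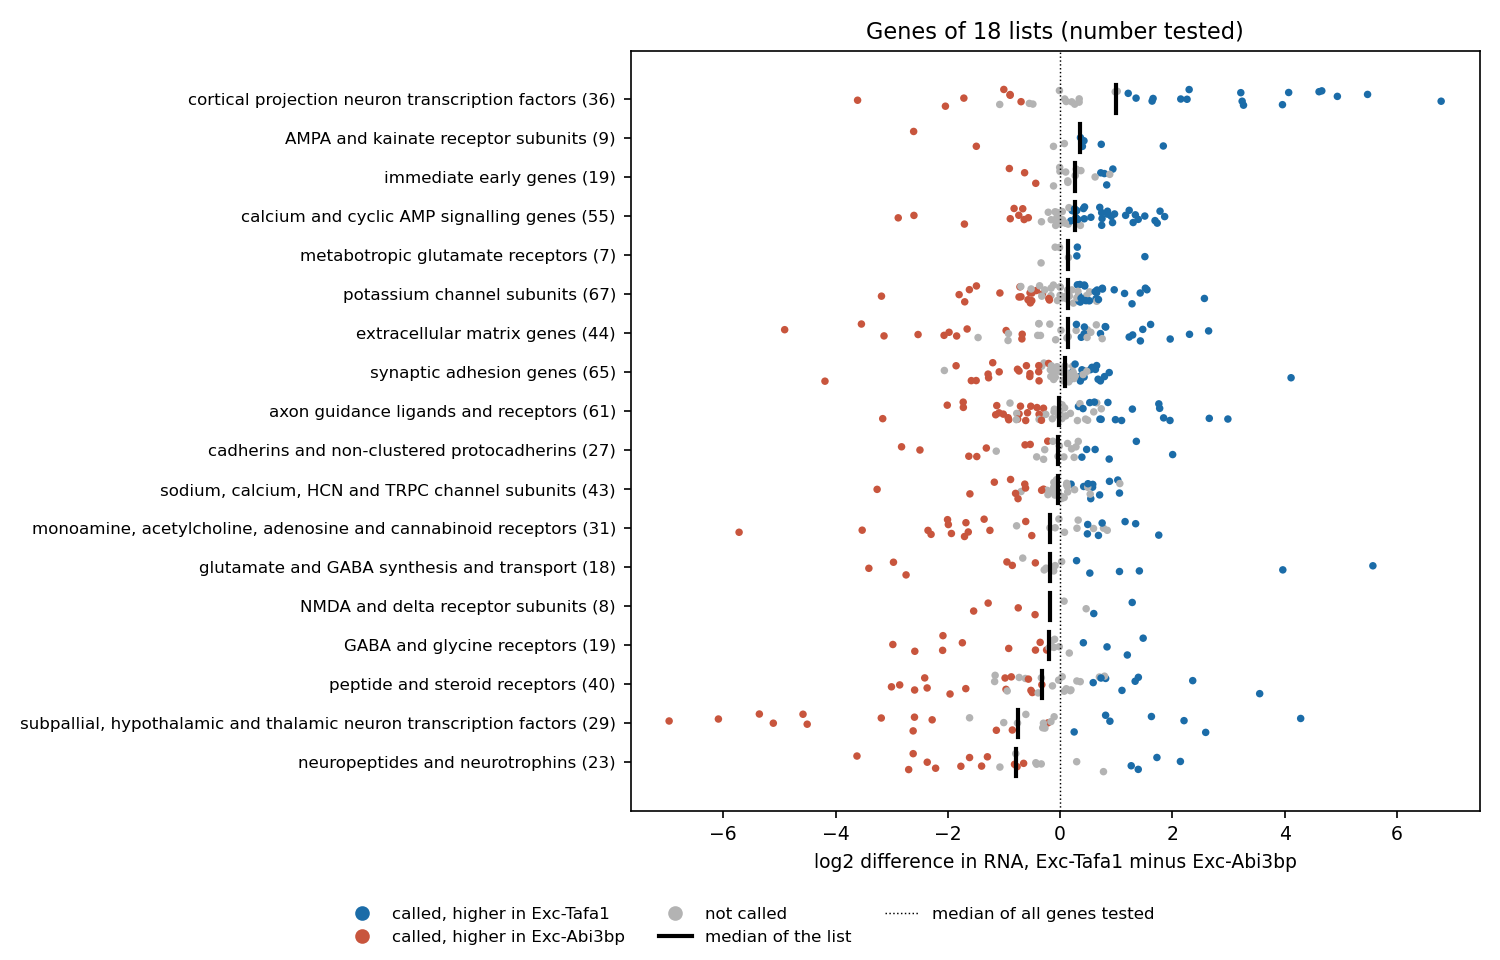
Log2 difference in RNA (Exc-Tafa1 minus Exc-Abi3bp) of each tested member of 18 gene lists, called higher in Exc-Tafa1 (blue), called higher in Exc-Abi3bp (red) or not called (grey), with the median of each list as a bar and that of all genes as a dotted line. Cortical projection neuron factors have the highest median, 1.00, and neuropeptides and neurotrophins the lowest, -0.79.

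The sign of the pooled difference was compared between the strains. Of the 1991 genes called at 2-fold or more, 1989 had the same sign in BL6 and in DBA. These genes were called on the same libraries, which favours such agreement, so it is a description and not a check. The type difference itself differed between strains for 162 genes (0.924% of those tested), 61 of them among the 1991. Tacr1 was among these, with a further log2 difference of -1.56 in DBA relative to BL6 (adjusted p 7.37e-05). For peaks, the interaction was called for 101 (0.0377%), and 79155 of the 79407 peaks called at 2-fold or more had the same sign in both strains. Their choice by large called differences favours this in the same way.

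In ATAC, 126527 peaks were called, 47.3% of those tested, 66907 (25%) higher in Exc-Tafa1 and 59620 (22.3%) higher in Exc-Abi3bp. At 2-fold or more these were 50922 (19%) and 28485 (10.6%). Peaks near gene starts split differently from the rest. Of the 22581 peaks within 2 kb of a start, 2700 were called higher in Exc-Tafa1 and 11840 higher in Exc-Abi3bp, whereas of the 245152 peaks elsewhere 64207 were higher in Exc-Tafa1 and 47780 in Exc-Abi3bp. Peaks within 2 kb of starts held 28.5%, 30.1%, 30.6% and 29.6% of the ATAC counts of Exc-Tafa1 and 35.4%, 36.0%, 37.2% and 36.3% of those of Exc-Abi3bp. Every Exc-Abi3bp library thus had a larger share at starts, and the lower ATAC depth of Exc-Abi3bp moved with it. The part of library quality in this share was not tested.

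Against that background, start peaks were set beside the RNA of their genes. Of 11724 genes with a tested peak within 2 kb of a start, 534 (4.55%) had only peaks called higher in Exc-Tafa1 and 9150 (78.0%) only peaks called higher in Exc-Abi3bp, with a median peak difference of -0.36. Among genes with RNA 2-fold or more higher in Exc-Tafa1, 212 of 616 (34.4%) had only peaks higher in Exc-Tafa1 and 155 (25.2%) only peaks higher in Exc-Abi3bp, with a median of 0.09. For genes 2-fold or more higher in Exc-Abi3bp the numbers were 19 (3.30%) and 485 (84.3%) of 575, with a median of -0.75. The medians of both groups thus lay to either side of the -0.36 of all genes. Over all genes called higher in Exc-Tafa1 in RNA, 269 of 1786 (15.1%) had start peaks only higher in Exc-Tafa1 and 981 (54.9%) only higher in Exc-Abi3bp, the type with less of their RNA, with a median of -0.20. Within 10 kb these were 418 (22.1%) and 599 (31.6%) of 1894, with a median of 0.03, so the sign of the median depends on the window.

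**Figure D4:**
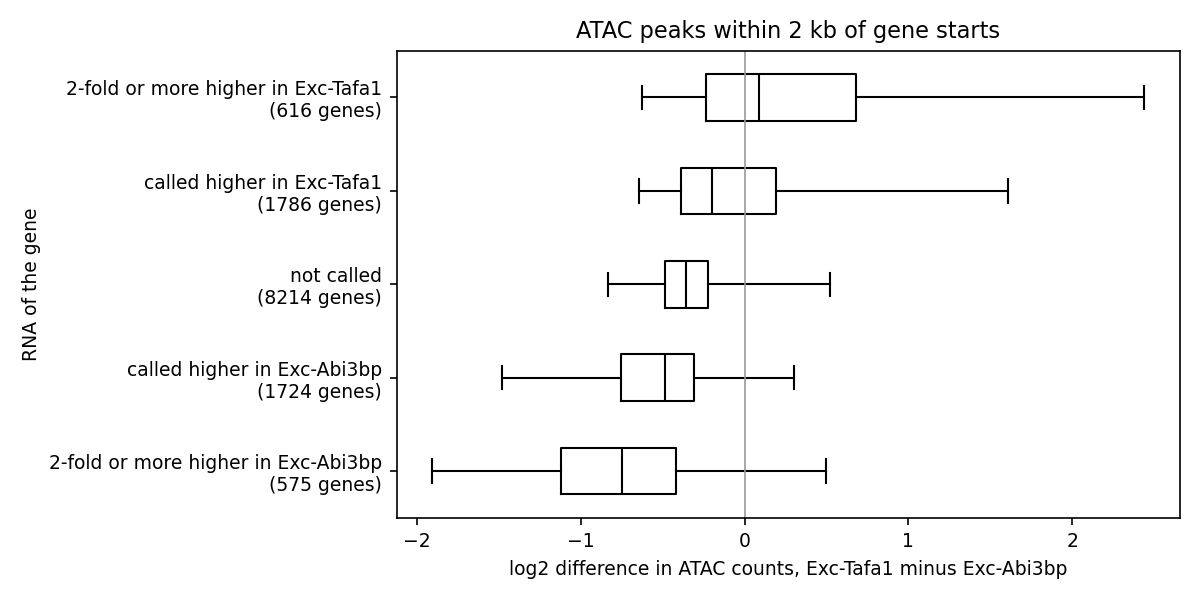
Log2 difference in ATAC counts of peaks within 2 kb of gene starts, by the RNA call of the gene. Boxes span the 25th to 75th percentile with the median as a line and whiskers reach the 5th and 95th percentile. The median runs from 0.09 for genes at least 2-fold higher in Exc-Tafa1 to -0.75 for genes at least 2-fold higher in Exc-Abi3bp.

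Single starts differed in both directions. The Neurod2 start (chr11:98329238-98329934) was at 17.0, 16.7, 18.7 and 17.6 CPM of ATAC counts in Exc-Tafa1 and 2.77, 1.58, 1.08 and 1.68 CPM in Exc-Abi3bp (log2 difference 3.21, SE 0.17), and the Neurod6 start (chr6:55680957-55681575) differed by 3.27. The Slc30a3 start (chr5:31092479-31094047) was at 32.1, 32.2, 36.6 and 34.5 CPM against 5.91, 8.45, 6.21 and 7.96 CPM (2.22, SE 0.10). All 3 starts were without overlap between the types. Starts of 3 factors chosen after their values were seen had the direction of their RNA: Emx1 differed by 1.80, Fezf2 by 2.25 and Barhl2 by -3.12, the last at 37.3, 33.2, 37.2 and 29.7 CPM in Exc-Abi3bp and 4.26, 5.39, 3.34 and 3.30 CPM in Exc-Tafa1. The Meis1 start (chr11:19018638-19021167) was at 52.8, 56.0, 65.4 and 68.1 CPM in Exc-Abi3bp and still at 17.6, 19.4, 20.8 and 14.9 CPM in Exc-Tafa1 (-1.77, SE 0.07), although Meis1 RNA there was 5.93 CPM or less. The Klhl1 start (chr14:96517269-96519567) differed by -1.07 and the Nxph1 start (chr6:8948082-8950362) by -1.58. For several genes with large RNA differences the start differed little: Kitl by 0.19, Pdzrn3 by 0.19, Tanc1 by 0.39, and Itga8 by 0.16 without passing the test (adjusted p 0.123), although its RNA differed by 3.51. The peak nearest a start of Sox6 was called in the direction opposite to its RNA, at 1.16 (adjusted p 0.0190) against -3.61, with overlapping libraries of 1.89 CPM or less, and it lost its call under several alternatives.

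**Figure D5:**
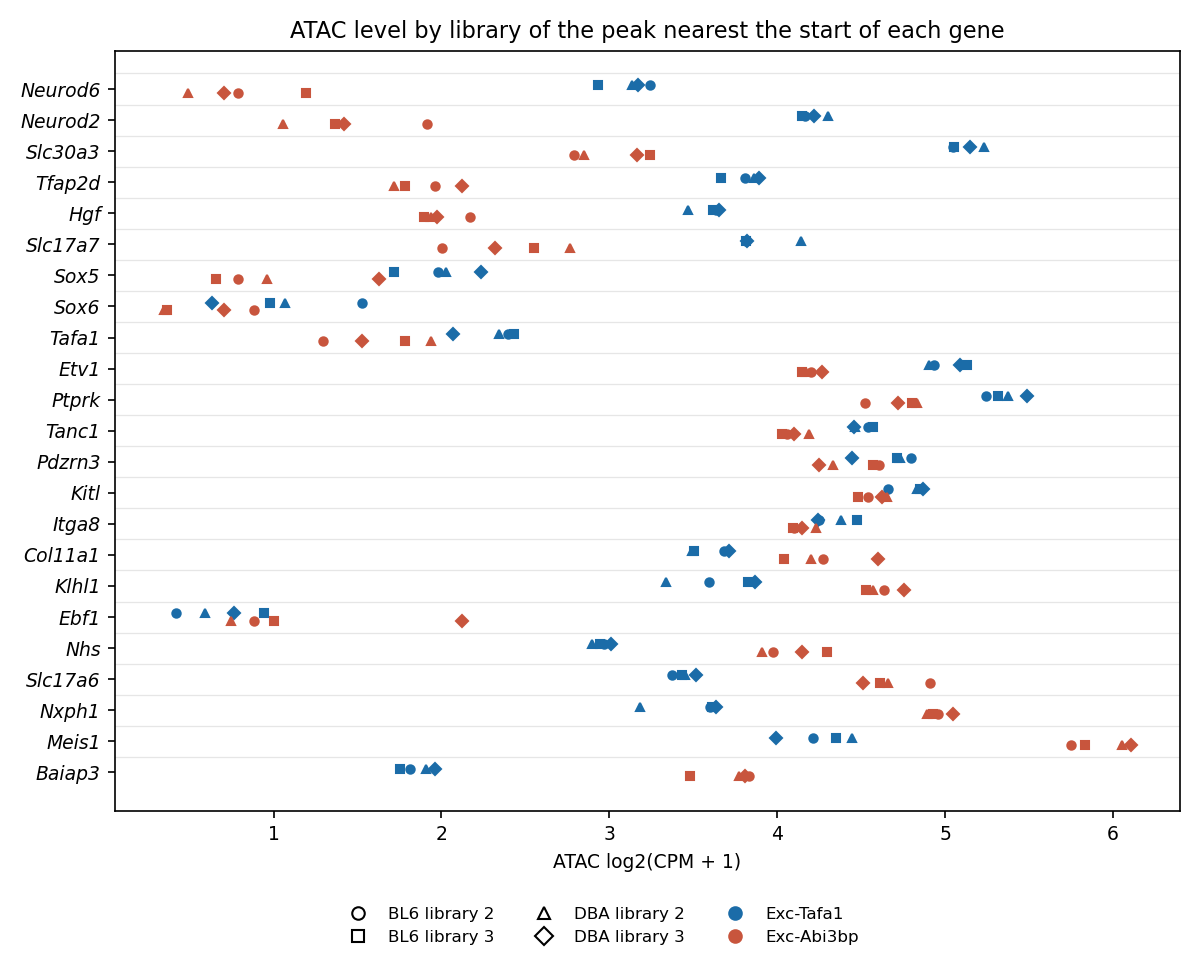
ATAC level, as log2(CPM + 1), in each library of the peak nearest a start of the genes with the largest RNA differences, of Tafa1 and of 3 transcription factors, Exc-Tafa1 in blue and Exc-Abi3bp in red. Neurod6 and Neurod2 lie farthest to one side, and Baiap3 and Meis1 to the other.

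Peaks over whole gene bodies were counted as well. Of all peaks tested, 25% were called higher in Exc-Tafa1 and 22.3% higher in Exc-Abi3bp, and the counts are read beside these shares. Of 42 tested peaks over Nfib (chr4:82290173-82506751), 36 were called higher in Exc-Tafa1 and none higher in Exc-Abi3bp, and over Sox5 89 of 146 were higher in Exc-Tafa1 and 5 in Exc-Abi3bp. Over Meis1, 21 of 22 peaks were called higher in Exc-Abi3bp and none in Exc-Tafa1, and over Pbx3 35 of 37 and 1. Ebf1 and Klhl1 were different: over Ebf1, 15 of 40 peaks were higher in Exc-Abi3bp and 7 in Exc-Tafa1, and over Klhl1 only 2 of 19 on each side, despite RNA differences of -6.09 and -3.51. Over the gene Abi3bp itself, 6 of 17 peaks were higher in Exc-Tafa1 and 4 in Exc-Abi3bp.

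The peaks with the largest differences, among those whose mean log2 CPM reached 4, are given by position. That mean weights the more deeply counted Exc-Tafa1 columns, so peaks high in Exc-Abi3bp reached it less easily and the 2 sides are not compared: the Barhl2 start, at -3.12, was under it. Of the 6 named for Exc-Tafa1, 5 overlapped no annotated gene. The first (chr12:51117485-51118754, between genes, nearest listed gene G2e3) was at 26.8, 27.4, 24.3 and 30.1 CPM in Exc-Tafa1 and 1.33, 2.01, 0.270 and 1.47 CPM in Exc-Abi3bp (log2 difference 4.38, SE 0.16). The others lay at chr3:143594320-143595569 (4.07), at chr10:84357285-84358690 near Nuak1 (3.94), inside Col27a1 at chr4:63290637-63291563 (3.51), at chr6:137934616-137935795 (3.45) and near Pxmp4 at chr2:154583842-154584667 (3.45). The 6 named for Exc-Abi3bp lay over Plcb4 at chr2:135658238-135660098 (-2.08), Gjd2 at chr2:114012603-114014729 (-2.05), Rcan3 at chr4:135433045-135434665 (-1.96), Btbd11 at chr10:85386198-85388371 (-1.83), Xkr6 at chr14:63605805-63608866 (-1.81) and the start of Meis1 (-1.77). The Plcb4 peak was at 6.29, 8.77, 8.66 and 9.50 CPM in Exc-Tafa1 and 30.8, 36.1, 35.9 and 31.6 CPM in Exc-Abi3bp, and Plcb4 RNA differed in the same direction.

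The 2 sequences marked in the promoter windows were counted over all windows on both strands. CAGATG was in 17.2% of all 32851 windows, in 28.0% of the 1014 windows whose peaks were called only higher in Exc-Tafa1 and in 10.6% of the 13116 whose peaks were called only higher in Exc-Abi3bp. TGACAG was in 19.2%, 22.5% and 15.6% of these in turn. Of the 18050 windows that overlapped a tested peak, 13.1% held CAGATG and 17.0% held TGACAG. Base composition moved with these shares: the median GC content was 52.7% over all windows, 60% in those with a tested peak, 49.3% in those higher in Exc-Tafa1 and 62.3% in those higher in Exc-Abi3bp, and its part in the shares was not tested.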

How the data were processed

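The authors deposited whole-number counts of RNA per gene and of ATAC per peak, 1 column for the pooled nuclei of a type in a library. Per the submitters' processing notes, the tools included Cell Ranger 6.0.2, Cell Ranger ATAC 2.0.0 and Seurat 4.0.5, with build mm10. Doublet handling and the use of strand are not given in the sources used here. The tables number the libraries of each strain 2 and 3, and columns were matched to the labels by strain and assay.

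Features with 10 or more counts in each strain over the 8 columns were tested with edgeR 4.0.16 (robust quasi-likelihood test, TMM factors, library as a block) for Exc-Tafa1 minus Exc-Abi3bp, with Benjamini-Hochberg adjustment over all features and calls at an adjusted p under 0.05. A second fit tested the type by strain interaction. Same-library columns come from the same pooled animals, and their deviations from type means correlated at 0.341 to 0.509 in RNA and 0.129 to 0.170 in ATAC. In counts simulated for the RNA comparison over 17526 genes, 69% of 2-fold and 88% of 4-fold changes were recovered and 14.2% of calls were false. For ATAC over 267733 peaks these were 41%, 90% and 5.07%. Each simulation changed only 200 features, while 30.1% of genes and 47.3% of peaks were called in the data. The false shares depend on that number and do not carry over to the calls made here.

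Named genes were Slc17a7, Slc17a6, Tafa1 and Abi3bp, the 12 largest called differences in each direction among genes reaching a mean log2 CPM of 5 (no provisional symbols), up to 3 called members per list and direction reaching a mean log2 CPM of 3, and the 3 each way with the smallest called interaction p. Named peaks were the 6 largest in each direction reaching a mean log2 CPM of 4, and start peaks of named genes. A further 15 genes were added after their values were seen. Members and lists were chosen with earlier results of these data known. Start peaks lay within 2 kb of a RefSeq start. Alternatives were RLE factors, total counts, other filters, DESeq2 1.42.0, thinning, no block and leaving out each library. Figures used matplotlib 3.10.9. Results of some genes are not reported here.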

Additional observations from a re-analysis of the deposited data

Results flagged for a closer look

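In 7 of the 139 named genes the paired difference of log2(CPM + 1) in 1 library stood apart from the other 3. Chance gives this in about 1 in 20 groups. Sox6 was at -4.11 in BL6 library 2, with the others at -3.29 to -3.21. Bcl11a was at -2.76 in DBA library 2, with the others at -1.93 to -1.90, and Grik3 at 2.04 in that library, with the others at 1.62 to 1.66. Grik4 was at -1.88 in BL6 library 3, with the others at -3.005 to -2.84, and Glra3 at -2.71 there, with the others at -2.02 to -1.92. Gabra2 was at 0.60 in DBA library 3, with the others at 0.80 to 0.83, and Crh at -1.95 there, with the others at -1.22 to -1.09.

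The difference between the types itself differed between strains for the 16 named genes given here (log2, DBA minus BL6, edgeR interaction test). It was positive for Pdzrn3 at 0.79 (adjusted p 0.0465), Pcdh15 at 0.62 (adjusted p 0.00454), Sgcz at 0.84 (adjusted p 6.06e-05), Epha3 at 0.97 (adjusted p 6.06e-05) and 4930556G01Rik at 4.06 (adjusted p 9.22e-07). It was negative for Slc38a1 at -0.72, Grin3a at -0.65, Pard3bos1 at -1.10, Cacna2d2 at -1.36, Cacng5 at -2.16 and Tac1 at -1.90, with adjusted p from 0.00776 to 0.0419, and for Adamtsl1 at -0.83 (adjusted p 0.00189) and Tacr1 at -1.56 (adjusted p 7.37e-05). The smallest adjusted p were those of Zbtb20 at -1.86 (1.29e-08), Arhgap26 at -2.18 (1.07e-07) and Col23a1 at -1.75 (2.94e-07). Arhgap26 was at 262, 341, 7.11 and 7.00 CPM in Exc-Tafa1 and 312, 329, 33.99 and 36.3 CPM in Exc-Abi3bp, low in both DBA libraries of both types.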

How the results depend on the processing

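DESeq2 called 3498 genes in RNA against 5268, of which 1559 against 2503 were higher in Exc-Abi3bp, and 38315 against 59620 peaks higher in Exc-Abi3bp. Without the pairing by library (no replicate block), 3609 genes were called, 1951 higher in Exc-Tafa1 and 1658 higher in Exc-Abi3bp, and 118250 peaks. Of the named genes, Slc1a3, Col5a2, Egr3 and Jund lost their call without the block. Leaving out each library gave 4139 to 4704 genes (2251 to 2476 and 1888 to 2228 each way) and 108525 to 119170 peaks (58685 to 63328 and 49840 to 55842). A 10 kb window gave 418 genes with RNA and start peaks higher in Exc-Tafa1 against 269, and 599 against 981 with start peaks higher in Exc-Abi3bp instead. Over all genes it gave 984 (7.96%) against 534 with only peaks higher in Exc-Tafa1, and among genes at least 2-fold higher in Exc-Abi3bp 34 (5.56%) against 19. The remaining settings kept the counts of called genes and peaks within 1.5 times. Of 139 named genes, 122 kept direction and side of the threshold throughout, and 41 of 47 named peaks did. Signs turned for Epha3 (-0.23 to 0.14 when 1 library was left out, 0.13 without BL6 library 2), Gad2 (-0.25 to 0.24 when 1 library was left out, 0.0043 with DESeq2, 0.13 at equal depth) and Gad1 (-0.69 to 0.05 when 1 library was left out, positive at 0.045 without BL6 library 3), none of which were called, and the cause was not tested. The start peaks of Kitl, Pdzrn3, Ebf1 and Sox6 lost their call under several alternatives. Exc-Abi3bp held fewer ATAC counts than Exc-Tafa1 in every library, which limits its low peaks.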
